A study of Mus musculus with 30 samples.

Results

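Csf1, Il34, Csf1r, Csf2ra, Csf2rb, Csf3r, Tgfbr1, Tgfbr2 and Igf1 encode growth factors of myeloid cells and receptors for such factors. They are 9 of the 30952 genes, 17889 of them protein-coding, that were measured in sorted spinal cord glia of mice. The genes were picked by symbol, with 3 ligands (Csf1, Il34 and Igf1) and 6 receptor chains, and all 9 were found in the table. EAE (experimental autoimmune encephalomyelitis, an induced autoimmune disease used as a model of multiple sclerosis) was raised in female C57BL/6 mice by immunization with the MOG35-55 peptide. From a clinical score of about 1, the mice received either vehicle (20% Captisol) or the RIPK1 kinase inhibitor GSK'547 (50 mg/kg), by gavage, in 2 doses a day over 3 days. The study asked what RIPK1 kinase activity does in each glial cell type during EAE. RNA from 15 microglia and 15 astrocyte libraries was sequenced, with 4 naive, 6 EAE-vehicle and 5 EAE-RIPK1inh libraries of each cell type. Naive mice had no EAE, and the labels name no dosing for them, so no group shows the inhibitor without disease. Microglia were sorted as CD11b+CD45intCX3CR1+ cells and astrocytes as GLAST+CD11b-CD45-CD140a- cells.

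CSF1 and IL-34 are the ligands of the CSF1 receptor, a tyrosine kinase on which microglia depend for survival, and in the healthy CNS both are made mainly by cells other than microglia. GM-CSF acts through CSF2RA, its specific chain, and CSF2RB, the signaling chain that the IL-3 and IL-5 receptors share, while CSF3R binds G-CSF and is best known from neutrophils. TGF-beta binds TGFBR2, which then recruits and activates TGFBR1, and this signal maintains the homeostatic state of microglia. IGF1 is a trophic factor for neurons and oligodendrocytes that activated microglia can make.

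The 250 bases upstream of the start sites are shown for Csf1, Tgfbr1 and Tgfbr2, a ligand and a receptor pair followed in microglia below. No RefSeq promoter matched Csf1r, Il34 or Csf2rb. Tgfbr1 matched 2, and the window next to its annotated gene start is shown. The sequences are those of RefSeq on GRCm38.p6, 5′ to 3′ on the strand of the gene, for Csf1 (chr3:107760470-107760719, minus strand), Tgfbr1 (chr4:47352972-47353221, plus strand) and Tgfbr2 (chr9:116175364-116175613, minus strand).
Csf1: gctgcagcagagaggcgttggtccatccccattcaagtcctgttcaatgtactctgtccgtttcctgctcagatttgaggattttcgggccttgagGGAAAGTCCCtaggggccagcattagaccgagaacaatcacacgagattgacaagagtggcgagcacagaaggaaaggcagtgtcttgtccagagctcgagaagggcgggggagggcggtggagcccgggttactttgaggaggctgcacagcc
Tgfbr1: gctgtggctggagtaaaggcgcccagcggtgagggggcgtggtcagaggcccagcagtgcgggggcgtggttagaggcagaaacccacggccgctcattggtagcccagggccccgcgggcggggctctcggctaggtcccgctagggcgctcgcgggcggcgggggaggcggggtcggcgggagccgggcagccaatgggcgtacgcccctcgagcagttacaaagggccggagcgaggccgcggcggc
Tgfbr2: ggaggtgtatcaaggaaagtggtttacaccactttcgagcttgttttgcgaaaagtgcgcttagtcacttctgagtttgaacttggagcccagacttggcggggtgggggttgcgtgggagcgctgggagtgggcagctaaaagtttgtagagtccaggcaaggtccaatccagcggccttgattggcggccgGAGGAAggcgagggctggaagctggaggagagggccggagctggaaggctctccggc
Capitals mark a kappaB motif in Csf1, whose consensus form reads on the opposite strand, and a PU box in Tgfbr2. The letters searched on both strands were those in capitals for the kappaB motif, GAGGAA for the PU box, CCAAT for the CCAAT box, GGGCGG for the GC box and TATAAA for the TATA box. The Csf1 window held 1 kappaB motif and 2 GC boxes, the Tgfbr1 window 2 CCAAT boxes and 2 GC boxes, and the Tgfbr2 window 1 PU box and 2 CCAAT boxes. No marked motif overlapped another. Of 32851 mouse promoter windows of this length, 0.14% held the kappaB motif, 23.3% the PU box, 33.8% the CCAAT box, 32.7% the GC box and 12.4% the TATA box. The motifs were chosen after the sequences had been seen, and a match describes letters, not binding.

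Values are log2 FPKM, a fragment count divided by exon length and library size, and the authors quantile-normalized them, so that every library held the same sorted values, from 0 to 15.34, and levels of different genes can be compared per length. Depth cannot be had from such values, and the offset before the logarithm is not given in the sources used here. Genes without signal share the lowest stretch of each library, which reached 0 to 2.74, and signal above it was seen for 8710 to 20398 genes in a microglia library and for 6728 to 22981 in an astrocyte library. The fewest were in naive library 4 of microglia and in naive library 2, EAE-vehicle library 1 and EAE-RIPK1inh library 5 of astrocytes. Astrocyte markers averaged 7.24 to 8.93 in astrocyte libraries and 0.84 to 1.77 in microglia libraries, and microglia markers averaged 8.49 to 10.88 in microglia libraries. In microglia libraries the 6 neutrophil markers averaged 2.06 to 10.71, with over 8 in naive library 3, EAE-vehicle libraries 1 and 3 and EAE-RIPK1inh library 3. In astrocyte libraries the 10 microglia markers averaged 0.80 to 2.26 in naive, 2.40 to 4.28 in EAE-vehicle and 2.07 to 3.52 in EAE-RIPK1inh mice, and the 7 oligodendrocyte markers 6.19 to 9.91. Groups were compared with limma (lmFit, then eBayes with a trend), the study's cutoff for a call (change of over 1.5-fold, unadjusted p under 0.05) was kept, and "rose" and "fell" are kept for a Benjamini-Hochberg adjusted p under 0.05 over all genes.

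The receptors were high in microglia, while the means of the ligands stayed at or below 4.25 log2 FPKM in every group. In naive microglia Csf1r was the highest of the 9 genes at 10.84 ± 0.80 log2 FPKM (SD, n = 4), followed by Tgfbr1 at 8.40 ± 0.29, Csf3r at 7.40 ± 0.79, Csf2ra at 6.39 ± 1.12, Tgfbr2 at 5.81 ± 0.43 and Csf2rb at 4.66 ± 0.79. The ligands came last, with Csf1 at 1.42 ± 1.43, Igf1 at 0.72 ± 1.44 and Il34 at 0.33 ± 0.30 (SD, n = 4 for each). Within each library Csf1r exceeded Tgfbr1 by 2.44 ± 0.99 and Tgfbr2 exceeded Csf2rb by 1.15 ± 0.65, in 4 of 4 libraries each. Csf3r and Csf2ra, Csf2ra and Tgfbr2, Csf1 and Igf1, and Igf1 and Il34 were pairs of neighbours whose difference was within 1 SD over the libraries. In EAE-vehicle microglia the order was Csf1r, Csf2ra, Csf3r, Tgfbr1, Csf2rb, Tgfbr2, Csf1, Igf1 and Il34, and the EAE-RIPK1inh group had this order too. Tgfbr1 thus ranked 2 in naive and 4 in both EAE groups. In the EAE-vehicle group, Csf3r and Tgfbr1 (0.53 ± 0.75) and Tgfbr1 and Csf2rb (0.10 ± 0.56) did not differ beyond their spread over 6 libraries, and neither did these pairs in the EAE-RIPK1inh group (0.33 ± 1.00 and 0.14 ± 1.08, SD, n = 5).

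**Figure D1:**
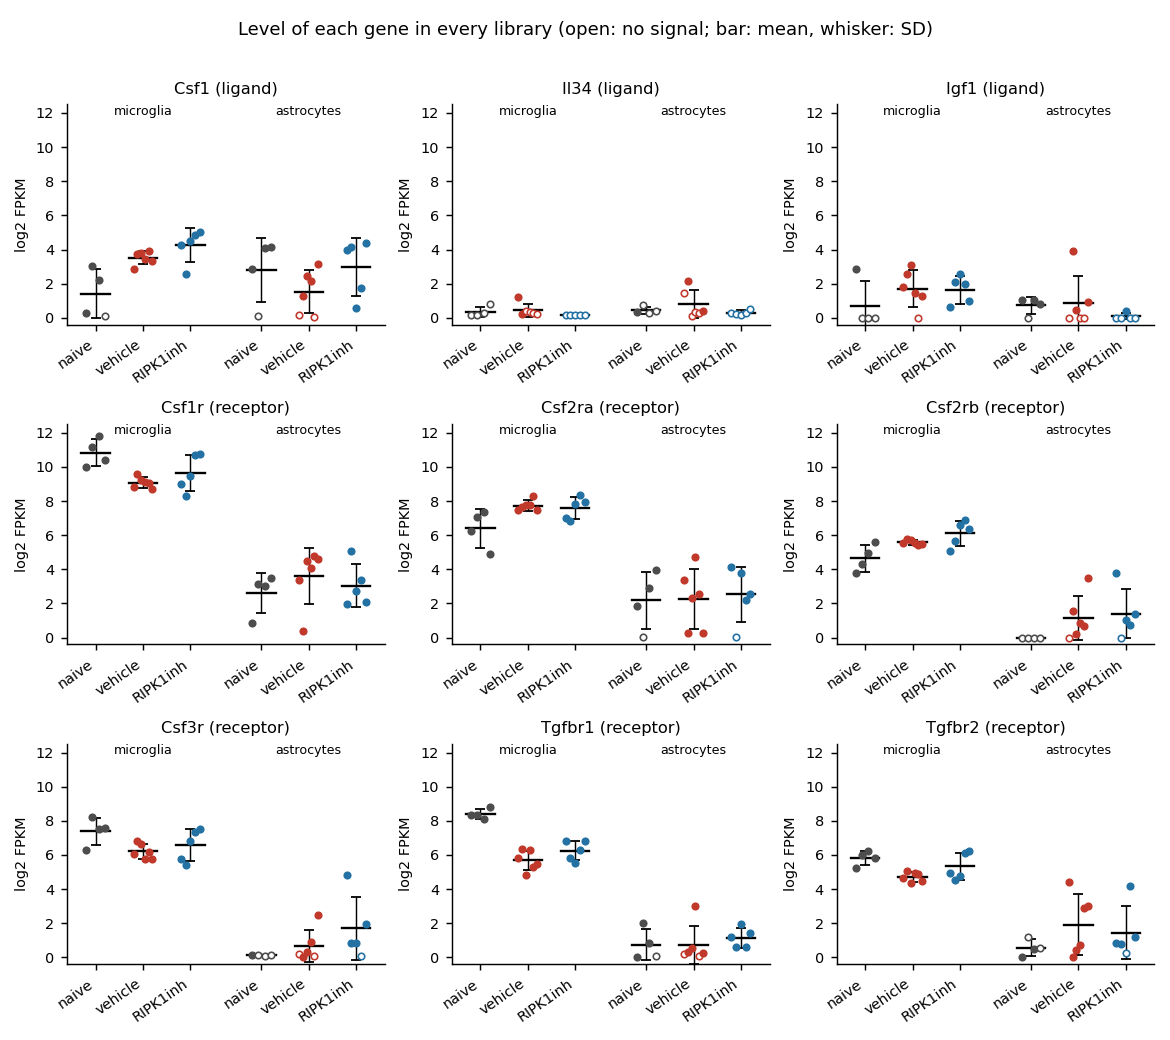
Level of each of the 9 genes in log2 FPKM (vertical axis) in every library, by cell type and treatment group (horizontal axis). Each point is 1 library, open points had no signal, bars are group means and whiskers SD; the means of all 6 receptors are higher in microglia than in astrocytes, Tgfbr1 in EAE microglia lies below all naive libraries, and Csf1 in EAE microglia lies mostly above them.

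Between the cell types, all 6 receptors were higher in microglia at an adjusted p under 0.05 in each of the 3 treatment groups, while 5.94% of 30952 genes were so in naive, 7.89% in EAE-vehicle and 7.18% in EAE-RIPK1inh mice. At the study's cutoff, 6 of 9 genes were called between the naive groups, where 19.7% of all genes were called, and 7 of 9 in each EAE group, where 22.4% (EAE-vehicle) and 21.7% (EAE-RIPK1inh) were. Csf1r differed by 8.23 (95% confidence interval 6.64 to 9.82, adjusted p = 4.13e-09 from limma) in naive, by 5.47 (4.17 to 6.77) in EAE-vehicle and by 6.58 (5.16 to 8.01) in EAE-RIPK1inh mice. For Tgfbr1 the differences were 7.66 (6.55 to 8.78), 4.94 (4.03 to 5.85) and 5.09 (4.09 to 6.08), and for Tgfbr2 5.23 (3.66 to 6.81), 2.80 (1.52 to 4.09) and 3.89 (2.48 to 5.30). Csf2ra was higher in microglia by 4.20 in naive and by 5.48 in EAE-vehicle mice (95% confidence intervals 2.39 to 6.01 and 4.00 to 6.96), and Csf3r by 7.28 and 5.54. Csf2rb is listed at 0 in each of the 4 naive astrocyte libraries, which allows no fold, and it was higher by 4.45 in EAE-vehicle and by 4.71 in EAE-RIPK1inh microglia. Every microglia library lay above every astrocyte library of its treatment group for each receptor, except for Tgfbr2 in EAE-vehicle mice, where astrocyte library 1 at 4.40 exceeded the lowest of the microglia libraries (4.34). That astrocyte library had the fewest genes with signal, and without it the difference was 3.30. Several astrocyte values lay near the no-signal stretch, so the sizes depend on the offset of the logarithm. Leaving out 1 library at a time, no receptor lost its adjusted p under 0.05 in these comparisons, Csf2rb in naive mice not included. Microglia and astrocyte libraries were treated as independent, although both were likely sorted from the same mice.

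Among the ligands, Csf1 did not pass the test between the cell types in naive mice and was higher in EAE-vehicle microglia. Its mean in naive mice was 1.42 ± 1.43 in microglia and 2.79 ± 1.88 in astrocytes (SD, n = 4 each), a difference of -1.37 (95% confidence interval -3.23 to 0.48, adjusted p = 0.446 from limma). Without naive astrocyte library 2, where Csf1 had no signal, the difference was -2.27 and met the study's cutoff, and without the libraries under 10000 genes with signal it was -1.83. In EAE-vehicle mice Csf1 was 1.97 higher in microglia (standard error 0.74, adjusted p = 0.0797 from limma), which met the cutoff, and in EAE-RIPK1inh mice 1.28 higher (standard error 0.81, adjusted p = 0.345), which was not called. The latter was 2.25 with quality weights (adjusted p = 0.0458 from limma) and, without the libraries under 10000 genes with signal, 1.64 and called. Igf1 was called at the cutoff in EAE-RIPK1inh mice, where it was 1.56 higher in microglia (adjusted p = 0.146 from limma), and this call was lost without EAE-RIPK1inh microglia library 2 (1.45), 3 (1.33) or 4 (1.48), with quality weights (1.43) and without the libraries of high neutrophil markers (1.33). Igf1 had signal in 1 of the 5 EAE-RIPK1inh astrocyte libraries and was at 0 in the others, so the size depends on the offset, and it was 3.93 with an offset of 0.1 (adjusted p = 0.0415 from limma). In EAE-vehicle mice Igf1 was 0.82 higher and not called, and without astrocyte library 2, at 3.94, the difference was 1.43 and called.

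In microglia, EAE-vehicle against naive, 7 of the 9 genes were called at the study's cutoff, where 12.0% of 28958 genes were. Of these 7, 3 were higher in EAE (6.13% of all genes were called higher), namely Csf1, Csf2ra and Csf2rb, and 4 were lower (5.86% of all genes), namely Csf1r, Csf3r, Tgfbr1 and Tgfbr2. Il34 and Igf1 were not called. An adjusted p under 0.05 was reached by 2 of 9, Tgfbr1 and Csf1r, against 3.92% of all genes. The share of calls rises with expression: of the 10413 genes with a mean of at least 1, which includes 8 of the 9 genes, 29.0% were called. The median difference of the 9 genes was 0.11, that of all genes -0.02. In bulk RNA of sorted cells, fewer cells of a type and less RNA per cell cannot be told apart. In the same libraries, 7 of 10 microglia markers were called lower and 1 higher, and 4 of 6 monocyte markers higher, in EAE, and their part in the differences below was not tested.

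Tgfbr1, the chain that carries the TGF-beta signal into the cell (ENSMUSG00000007613, chromosome 4 from 47353222 to 47414931, plus strand, 6534 exonic bases), showed the firmest difference. It was at 8.33, 8.37, 8.11 and 8.80 log2 FPKM in the 4 naive microglia libraries and ran from 4.85 over a median of 5.64 to 6.35 in the 6 EAE-vehicle libraries. In the 5 EAE-RIPK1inh libraries it was at 6.79, 5.84, 5.53, 6.27 and 6.80. All 11 EAE libraries lay below all naive libraries, while the 2 EAE groups overlapped. Tgfbr1 fell by 2.72 on the log2 scale in EAE-vehicle microglia (standard error 0.33, adjusted p = 0.000163 from limma), which is 6.60-fold lower. The two-sided exact permutation p was 0.00952, the value this test gives whenever 4 and 6 libraries separate fully. Against naive, Tgfbr1 fell by 2.16 in EAE-RIPK1inh microglia (standard error 0.34, adjusted p = 0.00223 from limma), 4.47-fold lower. Without any 1 library the adjusted p stayed at or under 0.000838 for EAE-vehicle and 0.00789 for EAE-RIPK1inh, and with the 4 libraries of high neutrophil markers left out the differences were -2.65 and -2.08 (adjusted p of 0.00298 and 0.0139).

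Tgfbr2, the chain that binds TGF-beta (ENSMUSG00000032440, chromosome 9 from 116084293 to 116175360, minus strand, 8187 exonic bases), was lower too, by less. Its levels were 5.22, 6.00, 6.21 and 5.81 in naive microglia, 4.34, 4.78 and 5.06 (lowest, median and highest) in the EAE-vehicle group and 4.97, 4.56, 4.78, 6.10 and 6.24 in the EAE-RIPK1inh group. All EAE-vehicle libraries lay below the naive ones, and the EAE-RIPK1inh libraries lay on both sides. The difference in EAE-vehicle was -1.08 (standard error 0.34, limma's adjusted p = 0.105, two-sided exact permutation p = 0.00952), a call at the study's cutoff that did not pass adjustment and was lost with the 4 libraries of high neutrophil markers left out (-0.84). In EAE-RIPK1inh it was -0.48 against naive (95% confidence interval -1.23 to 0.27). Within a library, Tgfbr1 exceeded Tgfbr2 by 3.11, 2.38, 1.90 and 2.98 in naive microglia, by 0.42 to 1.34 in EAE-vehicle and by 0.17 to 1.82 in EAE-RIPK1inh microglia. The receptor pair, with Tgfbr1 well above Tgfbr2 in naive cells, thus drew closer in level in both EAE groups.

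Csf1, the ligand of the CSF1 receptor that circulates and is also made within tissues (ENSMUSG00000014599, chromosome 3 from 107741048 to 107760469, minus strand, 5281 exonic bases), was the only ligand called in microglia. It stood at 0.30, 3.02, 2.23 and 0.12 in naive microglia, at 2.86, 3.58 and 3.89 (lowest, median and highest) in the EAE-vehicle group and at 4.27, 2.56, 4.52, 4.85 and 5.05 in the EAE-RIPK1inh group. Naive libraries 1 and 4 were near or in the no-signal stretch, and naive library 2 reached above 1 library of each EAE group, so the groups overlapped. The difference in EAE-vehicle was 2.09 (standard error 0.59, 95% confidence interval 0.83 to 3.34, limma's adjusted p = 0.0674, two-sided exact permutation p = 0.0190). Csf1 rose in EAE-RIPK1inh microglia against naive, by 2.83 (standard error 0.61, adjusted p = 0.0212 from limma), although with 1 library left out at a time the adjusted p was under 0.05 in 4 of 9 fits. Those that lost it left out naive library 1 or 4 or EAE-RIPK1inh library 3, 4 or 5, with adjusted p of up to 0.0690. It was 3.04 (adjusted p = 0.103 from limma) with the 4 libraries of high neutrophil markers left out and 2.40 (adjusted p = 0.0586) without naive library 4, the one under 10000 genes with signal. With the replicate block it was 2.69 (adjusted p = 0.126) and with only the 2 groups compared 2.83 (adjusted p = 0.149). Naive libraries 1 and 4 were close to 0, so the sizes also rest on the offset of the logarithm.

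Csf1r, the tyrosine kinase receptor of CSF1 and IL-34 (ENSMUSG00000024621, chromosome 18 from 61100598 to 61132149, plus strand, 5774 exonic bases), is marked in the annotation as confounded. This mark is on 15717 of the 30952 genes and on 4 of the 9. Csf1r was at 10.00, 11.14, 11.81 and 10.42 in naive microglia, at 8.68, 9.09 and 9.58 (lowest, median and highest) in EAE-vehicle and at 8.97, 8.31, 9.49, 10.67 and 10.73 in EAE-RIPK1inh microglia. All 6 EAE-vehicle libraries lay below all naive libraries, and EAE-RIPK1inh libraries 4 and 5 lay within the naive range. Csf1r fell by 1.76 in EAE-vehicle microglia (standard error 0.46, limma's adjusted p = 0.0462, two-sided exact permutation p = 0.00952), 3.40-fold lower. It kept an adjusted p under 0.05 in only 1 of 10 fits that left out a library, the fit without naive library 1, with differences of -2.05 to -1.44 and adjusted p of up to 0.140. With the 4 libraries of high neutrophil markers left out it was -1.41 (adjusted p = 0.358), with the replicate block -1.81 (adjusted p = 0.137), with quality weights -2.06 (adjusted p = 0.112), with no trend in eBayes -1.76 (adjusted p = 0.0614), and without naive library 4 -1.90 (adjusted p = 0.0558). Against naive, the EAE-RIPK1inh group was 1.21 lower at the study's cutoff (adjusted p = 0.286 from limma), a call that was lost in 4 of 9 fits, without naive library 2 (-1.11) or 3 (-0.89) or EAE-RIPK1inh library 1 (-1.04) or 2 (-0.88). It was also lost with quality weights (-0.84), with only the 2 groups compared (-1.21) and without the libraries of high neutrophil markers (-0.85).

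Ligand and receptor differed from their naive levels in opposite directions. Within a microglia library Csf1r exceeded Csf1 by 9.70, 8.12, 9.59 and 10.31 log2 units in naive mice. The gap was 5.18 to 5.94 in EAE-vehicle and 4.70 to 5.83 in EAE-RIPK1inh microglia, so neither EAE group reached the naive range. In astrocytes the same difference ran from -1.99 to 3.02 in naive, -0.87 to 4.70 in EAE-vehicle and -2.28 to 2.17 in EAE-RIPK1inh libraries, where all ranges overlapped.

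**Figure D2:**
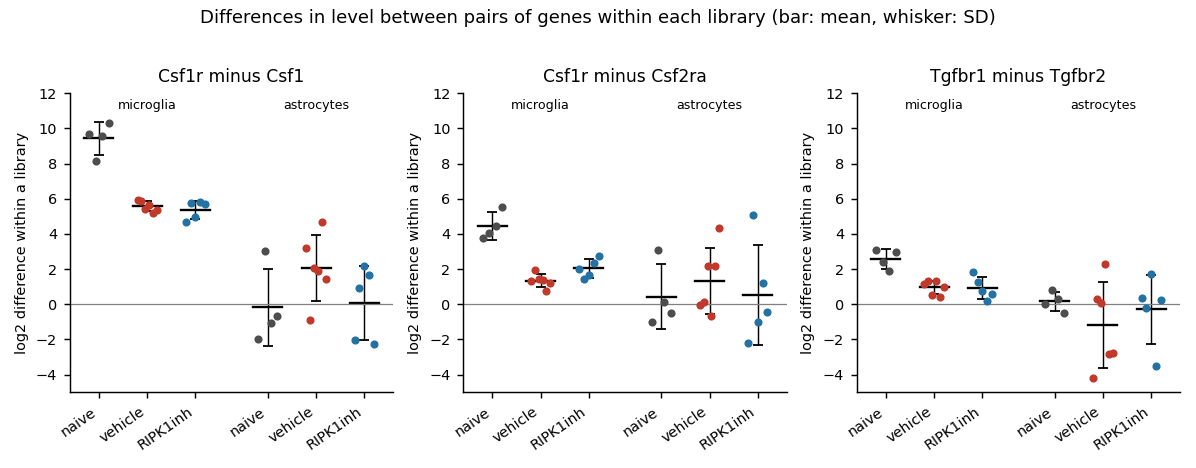
Difference in log2 FPKM between 2 genes of the same library (vertical axis) for Csf1r and Csf1, Csf1r and Csf2ra, and Tgfbr1 and Tgfbr2, by cell type and treatment group (horizontal axis). Each point is 1 library, bars are means and whiskers SD; in microglia all 3 differences are larger in naive libraries than in any EAE library, while in astrocytes the groups overlap.

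Csf2ra, the chain of the GM-CSF receptor that binds GM-CSF (ENSMUSG00000059326, chromosome 19 from 61223957 to 61228429, minus strand, 2871 exonic bases), was higher in EAE microglia. It was at 6.22, 7.09, 7.38 and 4.89 in naive, at 7.47, 7.70 and 8.31 (lowest, median and highest) in EAE-vehicle and at 6.98, 6.85, 7.85, 8.35 and 7.96 in EAE-RIPK1inh microglia. The EAE-vehicle libraries all lay above the naive ones, and 3 of 5 EAE-RIPK1inh libraries did. EAE-vehicle differed from naive by 1.35 (standard error 0.43, limma's adjusted p = 0.115) and EAE-RIPK1inh by 1.21 (standard error 0.45, adjusted p = 0.243), both called at the study's cutoff and neither past adjustment. Naive library 4, with the fewest genes with signal, was the lowest, and without it the differences were 0.84 and 0.70, the second of which was no longer called. Csf1r exceeded Csf2ra by 3.78 to 5.54 within naive libraries, by 0.76 to 1.94 in EAE-vehicle and by 1.46 to 2.76 in EAE-RIPK1inh libraries.

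Csf2rb, the shared signaling chain (ENSMUSG00000071713, chromosome 15 from 78325752 to 78353847, plus strand, 7277 exonic bases), was at 3.78, 4.31, 4.93 and 5.61 in naive microglia and at 5.41, 5.56 and 5.75 (lowest, median and highest) in EAE-vehicle microglia. In EAE-RIPK1inh microglia it was at 5.05, 5.63, 6.57, 6.90 and 6.34, and both EAE groups overlapped the naive one through naive library 4. It was 0.92 higher in EAE-vehicle (standard error 0.37, adjusted p = 0.252 from limma) and 1.44 higher in EAE-RIPK1inh (standard error 0.38, adjusted p = 0.0669), both at the study's cutoff. The first call was lost without naive library 1 (0.63) or 2 (0.81) and with the 4 libraries of high neutrophil markers left out (0.99), and without naive library 4 the difference in EAE-RIPK1inh was 1.76 (adjusted p = 0.0203). Csf2rb2, a near copy that serves the IL-3 receptor, shares 17.1% of the 50-base windows of Csf2rb, so reads could be split between them, and Csf2rb is marked as confounded. Csf2rb2 was at 3.10 ± 0.24 in naive (SD, n = 4), 4.24 ± 0.46 in EAE-vehicle (n = 6) and 4.89 ± 0.72 in EAE-RIPK1inh microglia (n = 5). It rose by 1.80 in EAE-RIPK1inh against naive (adjusted p = 0.0117 from limma), and its difference in EAE-vehicle was 1.14 (adjusted p = 0.0872).

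Csf3r, the G-CSF receptor (ENSMUSG00000028859, chromosome 4 from 126024550 to 126044440, plus strand, 3609 exonic bases), was at 6.30, 8.20, 7.50 and 7.59 in naive microglia, at 5.77, 6.12 and 6.84 (lowest, median and highest) in EAE-vehicle and at 5.79, 5.41, 6.84, 7.33 and 7.52 in EAE-RIPK1inh microglia. Naive library 1 lay among the EAE-vehicle libraries and the others above them. The difference in EAE-vehicle was -1.18 (standard error 0.44, adjusted p = 0.207 from limma), called at the study's cutoff, and the call was lost without naive library 2 (-0.92). In EAE-RIPK1inh it was -0.82 against naive and not called, and without naive library 1 (-1.19) or EAE-RIPK1inh library 5 (-1.05) it was called. Csf3r is best known from neutrophils. Neutrophil markers averaged 3.82 to 10.05 in naive, 3.26 to 9.09 in EAE-vehicle and 2.06 to 10.71 in EAE-RIPK1inh microglia. Of the 6 markers, 5 had signal in most libraries of each group. The 4 libraries with the highest neutrophil markers had Csf3r at 7.50, 6.08, 6.63 and 6.84, none of them the highest of its group. EAE-RIPK1inh library 4, with the lowest neutrophil markers of all (2.06), had 7.33. With the 4 libraries left out, the difference in EAE-vehicle was -1.22 and not called. The part of neutrophils in the Csf3r levels was not tested.

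**Figure D3:**
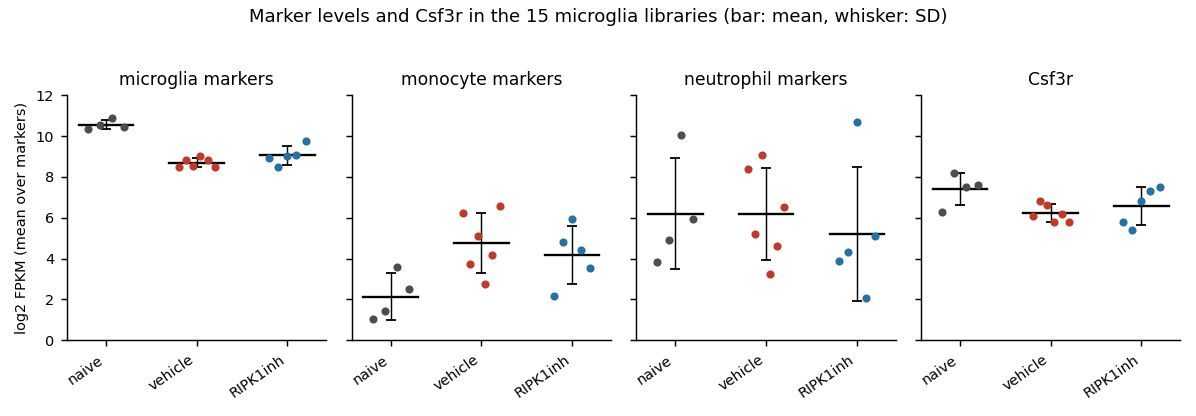
Mean log2 FPKM of the 10 microglia, 6 monocyte and 6 neutrophil markers, and the level of Csf3r (vertical axes), in the 15 microglia libraries by treatment group (horizontal axes). Each point is 1 library, bars are means and whiskers SD. Neutrophil markers spread from 2.06 to 10.71 with overlap of all groups, and Csf3r ranged from 5.41 to 8.20.

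RIPK1 inhibition against vehicle called 0 of the 9 genes in microglia at the study's cutoff and 0 at an unadjusted p under 0.05 in limma, while 1.76% of 28958 genes were called. The differences and their 95% confidence intervals were 0.60 (-0.08 to 1.28) for Tgfbr2, 0.56 (-0.09 to 1.22) for Tgfbr1, 0.55 (-0.37 to 1.48) for Csf1r and 0.75 (-0.43 to 1.92) for Csf1. For Csf2rb and Csf3r they were 0.52 (-0.23 to 1.26) and 0.36 (-0.53 to 1.26), and Csf2ra differed by -0.14 with a standard error of 0.40 and an upper bound of 0.72. The upper ends of these intervals lay between 1.22 and 1.92 for 6 of the 7 genes, all but Csf2ra. With a quality weight for each library, 6 of the 9 were called, all higher with the inhibitor: Csf1r by 1.22, Csf1 by 1.06, Tgfbr2 by 1.05, Csf3r by 0.96, and Csf2rb and Tgfbr1 by 0.86 each. The weights also raised the calls over all genes from 511 to 2730, and the smallest adjusted p among the 6 was 0.113.

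The calls among these genes depended on single libraries. Of the 7 genes with signal in at least 14 microglia libraries, EAE-RIPK1inh library 5 had the highest level of its group in 5 and library 2 the lowest in 5. Libraries 4 and 5 were each among the 2 highest in 6 of 7. Without EAE-RIPK1inh library 2, 3 genes were called, Csf1 (1.17), Csf1r (0.89) and Tgfbr2 (0.79), and without library 3, 2 were, Tgfbr1 (0.74) and Tgfbr2 (0.74). Csf2rb (0.78) was called without library 1, and Tgfbr1 without EAE-vehicle library 2 (0.70) or 4 (0.68). Over all genes, the calls rose from 511 to 953 without EAE-RIPK1inh library 2, the most of any fit that left out 1 library. The fewest, 365, came without EAE-RIPK1inh library 4. Microglia markers averaged 9.78 in EAE-RIPK1inh library 5 and 8.50 in library 2, the highest and lowest of that group, and their part in these levels was not tested.

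EAE-RIPK1inh against naive in microglia called 5 of 9 genes, Csf1, Csf2ra and Csf2rb higher and Csf1r and Tgfbr1 lower, where 10.1% of all genes were called, 5.35% higher and 4.71% lower. An adjusted p under 0.05 was reached by Csf1 and Tgfbr1, 2 of 9, against 2.73% of all genes. This comparison shares the naive libraries with that of EAE-vehicle, so the values of both are only set side by side. The difference for EAE-vehicle and then for EAE-RIPK1inh was 2.09 and 2.83 for Csf1, 1.35 and 1.21 for Csf2ra, and 0.92 and 1.44 for Csf2rb. For Csf1r it was -1.76 and -1.21, for Csf3r -1.18 and -0.82, for Tgfbr1 -2.72 and -2.16, and for Tgfbr2 -1.08 and -0.48.

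**Figure D4:**
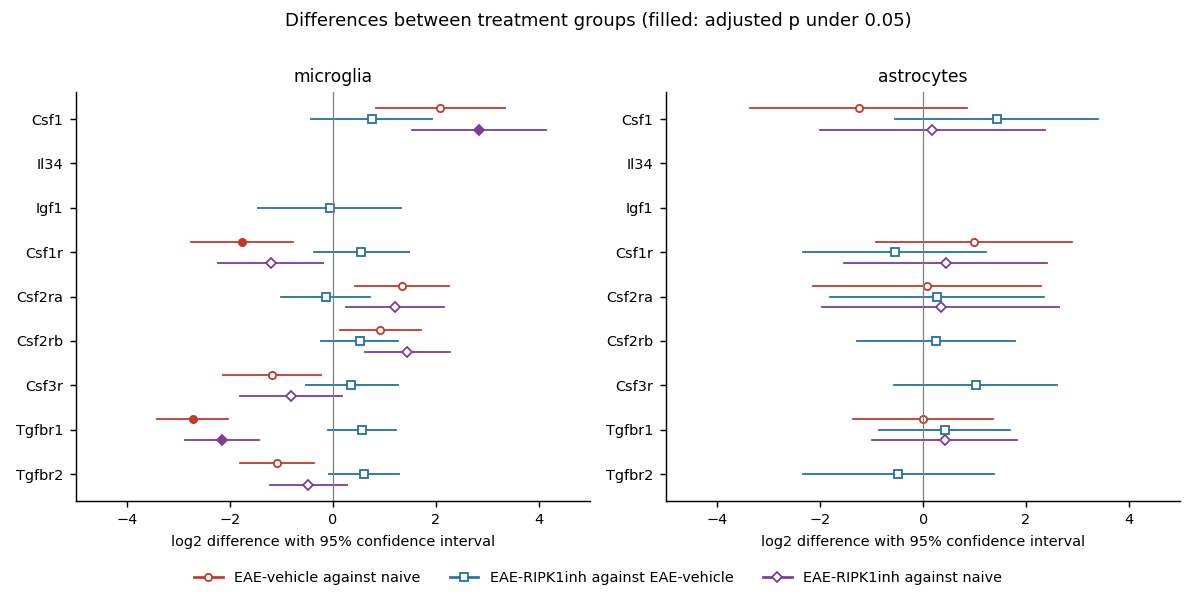
Difference in log2 FPKM with its 95% confidence interval (horizontal axis) for each gene (vertical axis) in microglia (left) and astrocytes (right), for the 3 comparisons of treatment groups. Filled symbols have an adjusted p under 0.05, which are Tgfbr1 and Csf1r in EAE-vehicle and Tgfbr1 and Csf1 in EAE-RIPK1inh against naive, all in microglia; genes with too little signal for a fold have no symbol.

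Igf1 (ENSMUSG00000020053, chromosome 10 from 87858265 to 87937042, plus strand, 9904 exonic bases, marked as confounded) had signal in 1 of 4 naive, 5 of 6 EAE-vehicle and 5 of 5 EAE-RIPK1inh microglia libraries. It was at 2.87 in naive library 1 and at 0 in the other naive libraries. It ran from 0 over a median of 1.62 to 3.10 in EAE-vehicle microglia and was at 0.62, 2.08, 2.58, 1.95 and 0.98 in EAE-RIPK1inh microglia. The means were 0.72 ± 1.44 (SD, n = 4), 1.70 ± 1.09 (n = 6) and 1.64 ± 0.81 (n = 5), no fold is given against the naive group, and the 2 EAE groups differed by -0.06 (95% confidence interval -1.45 to 1.33). In astrocytes Igf1 had signal in 3 of 4 naive, 3 of 6 EAE-vehicle and 1 of 5 EAE-RIPK1inh libraries, with the highest value at 3.94 in EAE-vehicle library 2.

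Il34 (ENSMUSG00000031750, chromosome 8 from 110741829 to 110805924, minus strand, 1959 exonic bases, marked as confounded), the other ligand of the CSF1 receptor and known mainly from neurons in the brain, was hardly detected. It had signal in 2 of 15 microglia and 3 of 15 astrocyte libraries, with the highest values at 1.20 in EAE-vehicle microglia library 1 and 2.17 in EAE-vehicle astrocyte library 2. No fold is given. Neuron markers averaged 3.88 to 6.07 in astrocyte libraries and 0.04 to 0.71 in microglia libraries.

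In astrocytes 0 of the 9 genes were called in any of the 3 comparisons, and 0 had an unadjusted p under 0.05 in limma. Over all 30718 genes, 6.71% were called for EAE-vehicle against naive, 3.02% for EAE-RIPK1inh against EAE-vehicle and 4.63% for EAE-RIPK1inh against naive. Csf1 was at 2.83, 0.11, 4.07 and 4.15 in naive astrocytes, at 0.06, 1.71 and 3.17 (lowest, median and highest) in EAE-vehicle and at 4.00, 4.15, 0.56, 1.73 and 4.40 in EAE-RIPK1inh astrocytes. These levels overlapped throughout, with differences of -1.25 (95% confidence interval -3.36 to 0.85) in EAE-vehicle and 1.43 (-0.54 to 3.40) with the inhibitor. Without naive library 2 the first was -2.15 and called, and without EAE-RIPK1inh library 3 the second was 2.03 and called. Both of these libraries had Csf1 near or in their no-signal stretch.

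The receptors in astrocyte libraries were low and scattered. Csf1r had signal in all 15 and was at 0.84, 3.13, 3.01 and 3.47 in naive, at 0.37, 4.27 and 4.76 (lowest, median and highest) in EAE-vehicle and at 1.97, 5.07, 2.73, 3.37 and 2.11 in EAE-RIPK1inh astrocytes. Its difference in EAE-vehicle was 0.99 (95% confidence interval -0.91 to 2.89), and without EAE-vehicle library 2 it was 1.64 and called. Csf2ra had signal in 13 of 15 libraries, Tgfbr1 and Tgfbr2 in 12 each, and Csf2rb and Csf3r in 9 each. Csf2rb had signal in 0 of 4 naive, 5 of 6 EAE-vehicle and 4 of 5 EAE-RIPK1inh libraries, up to 3.78, and Csf3r in 1, 4 and 4, up to 4.80, both highest in EAE-RIPK1inh library 1. Of the 10 microglia markers, 4 had signal in most naive astrocyte libraries, with none for Aif1 and Itgam, and 10 of 10 did in both EAE groups. Of 8 T cell markers 7 did so in both EAE groups, with means of 0.82 to 5.61, against 0 of 8 in naive mice, and the part of these cells in the receptor levels was not tested.

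The effect of EAE-vehicle against naive was compared between the cell types as an interaction term, which was called for 4 of 9 genes, where 8.68% of 30952 genes were. The effect in microglia minus that in astrocytes was 3.34 for Csf1 (standard error 1.17, adjusted p = 0.231 from limma), -2.72 for Tgfbr1 (standard error 0.70, adjusted p = 0.0546), -2.76 for Csf1r (adjusted p = 0.273) and -2.43 for Tgfbr2 (adjusted p = 0.379). None of these 4 passed adjustment, although Tgfbr1 did without the 4 libraries under 10000 genes with signal (-3.12, adjusted p = 0.0338), with quality weights (-3.18, adjusted p = 0.0171), with no trend in eBayes (adjusted p = 0.0416) and among genes with a mean of at least 1 (adjusted p = 0.0389), and the Csf1r call was lost with the 4 libraries of high neutrophil markers left out (-2.40). In naive astrocytes Tgfbr1 was at 0.74 ± 0.92 and Tgfbr2 at 0.58 ± 0.50 (SD, n = 4), so a fall as large as in microglia could not show. The terms for Tgfbr1 and Tgfbr2 therefore cannot tell whether the EAE effect differs by cell type. For RIPK1 inhibition against vehicle, the interaction was called for 0 of 9 genes, with 0 at an unadjusted p under 0.05 in limma, where 3.15% of all genes were called.

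The pathways around these genes were read from lists, of which 169 of 173 genes were in the table. Their counts stand beside the 12.0% of all genes, and 29.0% of those with a mean of at least 1, called in EAE-vehicle against naive microglia, and beside 6.71% and 15.7% in astrocytes. Of 24 other TGF-beta pathway genes, 0 were called higher and 4 lower in EAE-vehicle microglia, with a median of -0.21, and 15 of the 24 had a mean of at least 1. Smad3, which carries the signal from the receptor to the nucleus, fell by 1.87 (standard error 0.43, adjusted p = 0.0215 from limma), from 4.07 ± 0.62 (SD, n = 4) to 2.20 ± 0.84 (SD, n = 6). Smad2, its partner (-0.98), Nrros, which presents latent TGF-beta on microglia (-0.80), and the co-receptor Eng (-1.39) met the study's cutoff only. Acvr1 was called in EAE-RIPK1inh against naive (-1.60), together with Smad3 (-1.45) and Nrros (-0.98), and 0 of the 24 genes were called with the inhibitor against vehicle. In EAE-vehicle astrocytes Itgb8 (-2.22, adjusted p = 0.0691 from limma), Itgav (-1.64) and Ltbp3 (-2.13), which hold or activate latent TGF-beta, were lower at the cutoff and Tgfb3 (2.61) was higher. Tgfb3 was 2.11 lower with the inhibitor than with vehicle, at the cutoff only (adjusted p = 0.840 from limma).

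A list of 12 genes around the CSF1 receptor held signaling genes and also lineage transcription factors, which are not part of the receptor complex. Of the 12, 0 were called higher and 4 lower in EAE-vehicle microglia, where 10 had a mean of at least 1. The 4 called lower were the lineage transcription factors Runx1 (-1.36, adjusted p = 0.0734 from limma), Cebpa (-1.09) and Irf8 (-0.76), and the phosphatase Inpp5d (-1.27). Runx1 was called 0.94 higher with the inhibitor than with vehicle (adjusted p = 0.930 from limma). In EAE-vehicle astrocytes 4 were called higher, among them Irf8 (3.40), Tyrobp (3.77) and Inpp5d (2.11), which are genes of myeloid cells. Ptprz1, a receptor of IL-34, was lower (-2.51). Signal in naive astrocytes was seen in 2 of 4 libraries for Irf8 and Inpp5d and in 1 of 4 for Tyrobp. The sizes for these genes therefore depend on the offset of the logarithm. The microglia markers in the astrocyte libraries were given above.

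Among 11 genes of the GM-CSF, IL-3, IL-5 and G-CSF pathway, Pim1, a kinase induced by such receptors, rose by 2.78 in EAE-vehicle microglia (standard error 0.53, limma's adjusted p = 0.00636) and by 2.89 in EAE-RIPK1inh against naive (adjusted p = 0.00885). Socs3 was called in the latter comparison only (1.55). Csf2, which encodes GM-CSF and is made by T cells in EAE, was at 0 in every naive astrocyte library and had signal in 4 of 6 EAE-vehicle astrocyte libraries, at 2.59 ± 2.16 (SD, n = 6). Stat5b was 1.82 lower in astrocytes with the inhibitor than with vehicle, at the cutoff only.

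Of 13 IGF pathway genes, 6 of them with a mean of at least 1, 2 were called higher and 2 lower in EAE-vehicle microglia. Igf2r, which takes up IGF2 and lysosomal enzymes, rose by 1.72 (standard error 0.40, adjusted p = 0.0253 from limma), and Igfbp6 (2.19), Igfbp4 (-1.22) and Insr (-1.71) met the cutoff only. Igfbp6 had signal in 2 of 4 naive microglia libraries, so its size depends on the offset of the logarithm. Insr was 1.52 higher with the inhibitor than with vehicle, at the cutoff (adjusted p = 0.930 from limma). In EAE-vehicle astrocytes the binding proteins Igfbp2 (-1.29) and Igfbp4 (-1.56) were lower, at the cutoff only. With the inhibitor, Igfbp2 (1.11) and Irs2 (1.42) were higher in astrocytes than with vehicle, also at the cutoff only. Irs2 had signal in 1 of 6 EAE-vehicle astrocyte libraries, so its size depends on the offset too. Among 19 other growth factors, Hgf (2.17) and Gas6 (0.83) were called higher and Pdgfa (-1.63) and Tgfa (-1.51) lower in EAE-vehicle microglia. Vegfa (-2.88), Ptn (-1.44) and Mdk (-0.96) were called lower and Nrg1 (2.10) higher in EAE-vehicle astrocytes. Signal was seen in 2 of 4 naive microglia libraries for Hgf and in 1 of 4 naive astrocyte libraries for Nrg1. Both sizes therefore depend on the offset.

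The genes most like Csf1, Il34, Csf1r and Igf1 were ranked by Pearson's r over the 15 libraries of a cell type, as a description that mixes treatment groups. For Csf1r in microglia they were Slco2b1 (r = 0.980), Cyth4 (0.975) and Taz (0.974), and for Csf1 in microglia Tlr12 (0.948), Bst2 (0.928) and Spint1 (0.920), out of 9703 genes. For Igf1 in microglia the highest values were 0.805 (Tor1b), 0.802 (Mpi) and 0.798 (Prkcb). Il34 had too little signal in either cell type for such a ranking to be read.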

How the data were processed

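The authors aligned and quantified the reads with OmicSoft Array Studio and deposited log2 FPKM values per gene, quantile-normalized over all 30 libraries; the aligner, the annotation release and the offset are not given in the sources used here. Genes were joined to the deposited annotation by gene ID, and the positions of 9 of 9 matched GRCm38. Values were fitted with limma 3.58.1 in R 4.3.3, unpaired, with each cell type's 3 groups fitted together (28958 genes in microglia, 30718 in astrocytes) and all 30 libraries in 1 fit of 30952 genes between cell types. The paper gives 1 set of mouse numbers for both cell types and describes both as sorted from these spinal cords. Microglia and astrocyte libraries thus likely share mice, and the fit between cell types treats them as independent. Single genes also had exact permutation tests. Results were recomputed with other settings (offset 0.1, quality weights, median centring, a mean of at least 1, no trend, 2 groups only, replicate block, no-signal values set to 0, libraries left out), and the main changes are given. Depth is unknown. The fits were tested on simulated data. The members and lists were chosen with earlier results of these data known. Named were the 9 genes, list genes with an adjusted p under 0.05 or up to 4 called genes per list with a mean of at least 1, and 3 genes most like Csf1, Csf1r and Igf1 (those of Il34 had too little signal). The paper's methods name a paired t test, but the labels number the libraries and name no pairs. Over 41 same-numbered pairs the correlation of deviations was -0.156 to 0.241, over 0.1 in 5. These mix pairs between treatment groups with pairs between cell types, so they cannot show whether libraries are paired. As the labels name no pairs, the main fits left the numbers out. The numbers served only for the replicate block among the other settings. P-values set the differences between groups against the spread between libraries.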

Additional observations from a re-analysis of the deposited data

Results flagged for a closer look

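Of 42 sets of libraries tested for a single library far from the others, where chance flags about 1 in 20, 4 were flagged, all in astrocytes. Csf1r was at 0.37 in EAE-vehicle library 2, while the others were at 3.36 to 4.76. Csf3r was at 2.49 in EAE-vehicle library 6, against 0.02 to 0.93. Tgfbr1 was at 3.01 in EAE-vehicle library 4, against 0.07 to 0.55, and Tgfbr2 at 4.16 in EAE-RIPK1inh library 4, against 0.23 to 1.20. In a further 12 sets, too few libraries had signal, and they were not tested.

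The effect of EAE-vehicle against naive differed between the cell types at an unadjusted p under 0.05 in 4 genes. The effect in microglia minus that in astrocytes was 3.34 for Csf1, -2.76 for Csf1r, -2.72 for Tgfbr1 and -2.43 for Tgfbr2, by limma's interaction term, and their adjusted p was 0.231, 0.273, 0.0546 and 0.379. For Tgfbr1 and Tgfbr2, the naive astrocyte means of 0.74 and 0.58 left no room for a fall as large as in microglia.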

How the results depend on the processing

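Differences are on the log2 scale, and the alternatives that leave out several libraries were chosen after seeing the data. Tgfbr1 in EAE-vehicle and in EAE-RIPK1inh against naive microglia kept its direction, its call and an adjusted p under 0.05 in all alternatives run. With no-signal values set to 0 and with eBayes without a trend, no direction or call at the study's cutoff changed among the 9 genes, and no count over all genes moved by over 1.5 times. The adjusted p of Csf1r in EAE-vehicle and of Csf1 in EAE-RIPK1inh against naive microglia passed 0.05 in several alternatives, most of them given with those genes. Among genes with a mean of at least 1, where fewer genes are adjusted for, Csf1 (0.0179), Csf2ra (0.0226) and Tgfbr2 (0.0414) in EAE-vehicle and Csf2rb (0.0175) in EAE-RIPK1inh against naive microglia had an adjusted p under 0.05, as had Csf1 between the cell types in EAE-vehicle mice (0.0301).

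Counts of the 9 genes called moved as follows. Without the 4 microglia libraries of high neutrophil markers they were 4 in EAE-vehicle against naive microglia and 2 in the EAE-vehicle interaction. With quality weights they were 6 in EAE-RIPK1inh against EAE-vehicle microglia, and 2, 1 and 1 in astrocytes for EAE-vehicle against naive, EAE-RIPK1inh against EAE-vehicle and EAE-RIPK1inh against naive, and 1 in the EAE-RIPK1inh interaction. With an offset of 0.1 they were 1 in EAE-vehicle and 2 in EAE-RIPK1inh against naive astrocytes. With only the 2 groups compared they were 3 in microglia and 1 in astrocytes for EAE-RIPK1inh against naive. Over all genes, EAE-RIPK1inh against EAE-vehicle in microglia gave 882 calls with an offset of 0.1 and 2730 with quality weights, against 511. Quality weights gave 3698 in EAE-vehicle and 3152 in EAE-RIPK1inh against naive astrocytes, against 2060 and 1421. The EAE-RIPK1inh interaction gave 1604 with quality weights, 606 without the libraries of high neutrophil markers and 1472 without those under 10000 genes with signal, against 976. Among the 11489 genes with a mean of at least 1 it gave 557, a share of 4.85%, against 3.15% of all 30952 genes. The cause was not tested.

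Directions turned only for differences that were not called. With quality weights, Igf1 was 0.47 and Csf2ra 0.05 for EAE-RIPK1inh against EAE-vehicle in microglia. In astrocytes the weights gave -0.35 (Csf2ra) and 0.51 (Tgfbr1) for EAE-vehicle against naive, 0.03 (Tgfbr2) for EAE-RIPK1inh against EAE-vehicle, and -1.25 (Csf1), -0.13 (Csf1r) and -0.34 (Csf2ra) for EAE-RIPK1inh against naive. In the EAE-RIPK1inh interaction they gave 0.51 (Csf1), 0.08 (Csf2ra) and 0.56 (Csf3r). With an offset of 0.1, Igf1 was 0.22 for EAE-RIPK1inh against EAE-vehicle microglia, Tgfbr1 0.05 for EAE-vehicle against naive astrocytes and -0.72 in the EAE-RIPK1inh interaction. Without the libraries of high neutrophil markers, Igf1 was 0.09 for EAE-RIPK1inh against EAE-vehicle microglia and 0.23 between the naive cell types, where centring on the median gave 0.09. Without the libraries under 10000 genes with signal, astrocytes gave -0.87 (Csf2ra) and 0.53 (Tgfbr1) for EAE-vehicle against naive, 0.07 (Tgfbr2) for EAE-RIPK1inh against EAE-vehicle, and -1.07 (Csf1) and -0.39 (Csf2ra) for EAE-RIPK1inh against naive.

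With the replicate block, Tgfbr1 in EAE-vehicle against naive astrocytes was 0.15, Csf2ra in EAE-RIPK1inh against EAE-vehicle astrocytes -0.13, and Csf2ra in EAE-RIPK1inh against naive microglia 1.10 and no longer called (adjusted p = 0.463 from limma). With it Csf1r in EAE-vehicle (-1.81, adjusted p = 0.137) and Csf1 in EAE-RIPK1inh against naive microglia (2.69, adjusted p = 0.126) lost an adjusted p under 0.05. The replicate block changed no other direction, call at the study's cutoff or side of that adjusted p among the 9 genes.

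Leaving out 1 library at a time, EAE-RIPK1inh against EAE-vehicle in microglia called 0 to 3 of the 9 genes and 365 to 953 of all genes, with Igf1 at -0.40 to 0.22 and Csf2ra at -0.33 to 0.05. In astrocytes each of the 3 comparisons called 0 to 1 of the 9 genes. For EAE-vehicle against naive, Csf2ra ran from -0.65 to 0.66 and Tgfbr1 from -0.46 to 0.42. For EAE-RIPK1inh against EAE-vehicle, Csf2ra ran from -0.14 to 0.90, Csf2rb from -0.35 to 0.72 and Tgfbr2 from -1.16 to 0.01. For EAE-RIPK1inh against naive, Csf1 ran from -0.72 to 0.78, Csf1r from -0.16 to 0.72 and Csf2ra from -0.38 to 0.97. Igf1 between the naive cell types ran from -0.73 to 0.23. The EAE-RIPK1inh interaction called 0 to 1 of the 9 genes, with Csf2rb at -0.21 to 0.87, Csf3r at -1.06 to 0.11 and Tgfbr1 at -0.31 to 0.35.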
